A study of Mus musculus with 18 samples.

Results

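The core circadian clock genes were followed in the striatum of 18 mice of 4 genotypes. The set was fixed by name and held 10 genes: Per1, Per2, Per3, Cry1, Cry2, Clock, Arntl, Nr1d1, Nr1d2 and Dbp. All 10 were among the 20914 genes that passed the filter on low counts, out of 55421 genes in the count table. Bulk RNA was sequenced from 5 WT, 5 zQ175, 3 CK2a'(+/-) and 5 zQ175:CK2a'(+/-) mice aged 12 to 14 months. The zQ175 mouse is a heterozygous knock-in model of Huntington's disease that carries an expanded CAG tract in the mouse Htt gene. CK2a'(+/-) mice are heterozygous for a null allele of Csnk2a2, which encodes the α' catalytic subunit of protein kinase CK2, and zQ175:CK2a'(+/-) mice carry both alleles. Both alleles are germline changes present in all cells. The CK2a' line was first made on a mixed 129/SvEv and C57BL/6J background and was then bred over many generations to WT and zQ175 mice, and the study's methods give C57BL/6J as the background of every mouse. The time of day at which tissue was taken is not among the labels, nor is the sex of each mouse. The study's methods place all experiments in the light phase, but the sources used here give no hour of tissue collection. A difference between genotypes below therefore cannot be told apart from one in the time of collection. The study's methods give more females than males in the WT and zQ175:CK2a'(+/-) groups and more males than females in the zQ175 and CK2a'(+/-) groups. Where these ratios differ, as in zQ175:CK2a'(+/-) against CK2a'(+/-), genotype and sex cannot be fully told apart.

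In the clock of mammalian cells, CLOCK and BMAL1, the product of Arntl, bind E-box elements and switch on the Per and Cry genes, whose protein products then repress CLOCK and BMAL1. A second loop runs through Nr1d1 and Nr1d2, which encode the REV-ERB repressors of Arntl. Dbp encodes a transcription factor that is itself driven by CLOCK and BMAL1 through E-boxes and acts on D-box elements, and its RNA is known for a large daily swing. Transcripts of many E-box targets, among them Dbp, and of Arntl peak at nearly opposite times of day. CK2 is known as a kinase of BMAL1 and PER2, and striatal neurons express these clock genes in a daily rhythm.

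Library totals ranged from 13612381 to 22702547 counts, with a median of 18005044. Levels are given as CPM, the counts of a gene scaled to its library's TMM-normalized total. Csnk2a2 followed the labels, at 29.4 to 35.0 CPM in WT, 32.0 to 37.5 in zQ175, 14.7 to 18.02 in CK2a'(+/-) and 15.8 to 19.9 in zQ175:CK2a'(+/-) mice. All 8 markers of striatal projection neurons had counts in every library, with a summed level of 1011 to 4724 CPM. Choroid plexus markers summed to over 500 CPM in 4 libraries, at 2042 in WT replicate 1, 1703 in WT replicate 3, 953 in CK2a'(+/-) replicate 1 and 3039 in zQ175:CK2a'(+/-) replicate 2, and at 4.30 to 15.5 in the other libraries. In bulk tissue, fewer cells of a type and less RNA per cell cannot be told apart.

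Per length of transcript, Dbp was the highest of the clock genes, at 30.0 ± 10.1 CPM per kilobase (SD, n = 18). Nr1d1 followed at 22.1 ± 3.87, Per1 at 20.4 ± 4.05, Cry2 at 17.5 ± 1.79 and Nr1d2 at 15.6 ± 1.86 CPM per kilobase. Below these came Clock at 10.4 ± 0.698, Per2 at 9.27 ± 2.04, Per3 at 7.01 ± 1.41, Cry1 at 6.53 ± 1.08 and Arntl at 5.11 ± 0.887 CPM per kilobase. The ranges of neighbours in this order overlapped, with 1 exception: the lowest mouse for Nr1d2, at 13.3 CPM per kilobase, was above the highest mouse for Clock, at 11.5. On GRCm38 (GENCODE vM21), Per1 (chr11:69095217-69109960), Arntl (chr7:113207465-113314126) and Dbp (chr7:45705088-45710203) lie on the plus strand. Per2 (chr1:91415982-91459324), Per3 (chr4:151003652-151044665), Cry1 (chr10:85131700-85185064), Cry2 (chr2:92403646-92434043), Clock (chr5:76209868-76304792), Nr1d1 (chr11:98767932-98775333) and Nr1d2 (chr14:18204054-18239127) lie on the minus strand. In counts, the members ranged from 226 reads for Cry1 to 3776 reads for Per1 in a library.

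The members differed in how much of their spread lay between genotypes. Genotype took 69.0% of the variance of log2 CPM for Cry2, 67.1% for Per1 and 66.9% for Dbp, and only 10.8% for Cry1. The median over the 10 members was 47.8%, beside 19.1% over all genes tested. Within genotypes, Clock varied least, with an SD of 0.0766 on the log2 scale, and Per2 and Dbp most, at 0.293 and 0.290. The median within-genotype SD was 0.206 for the members and 0.336 for all genes tested.

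**Figure D1:**
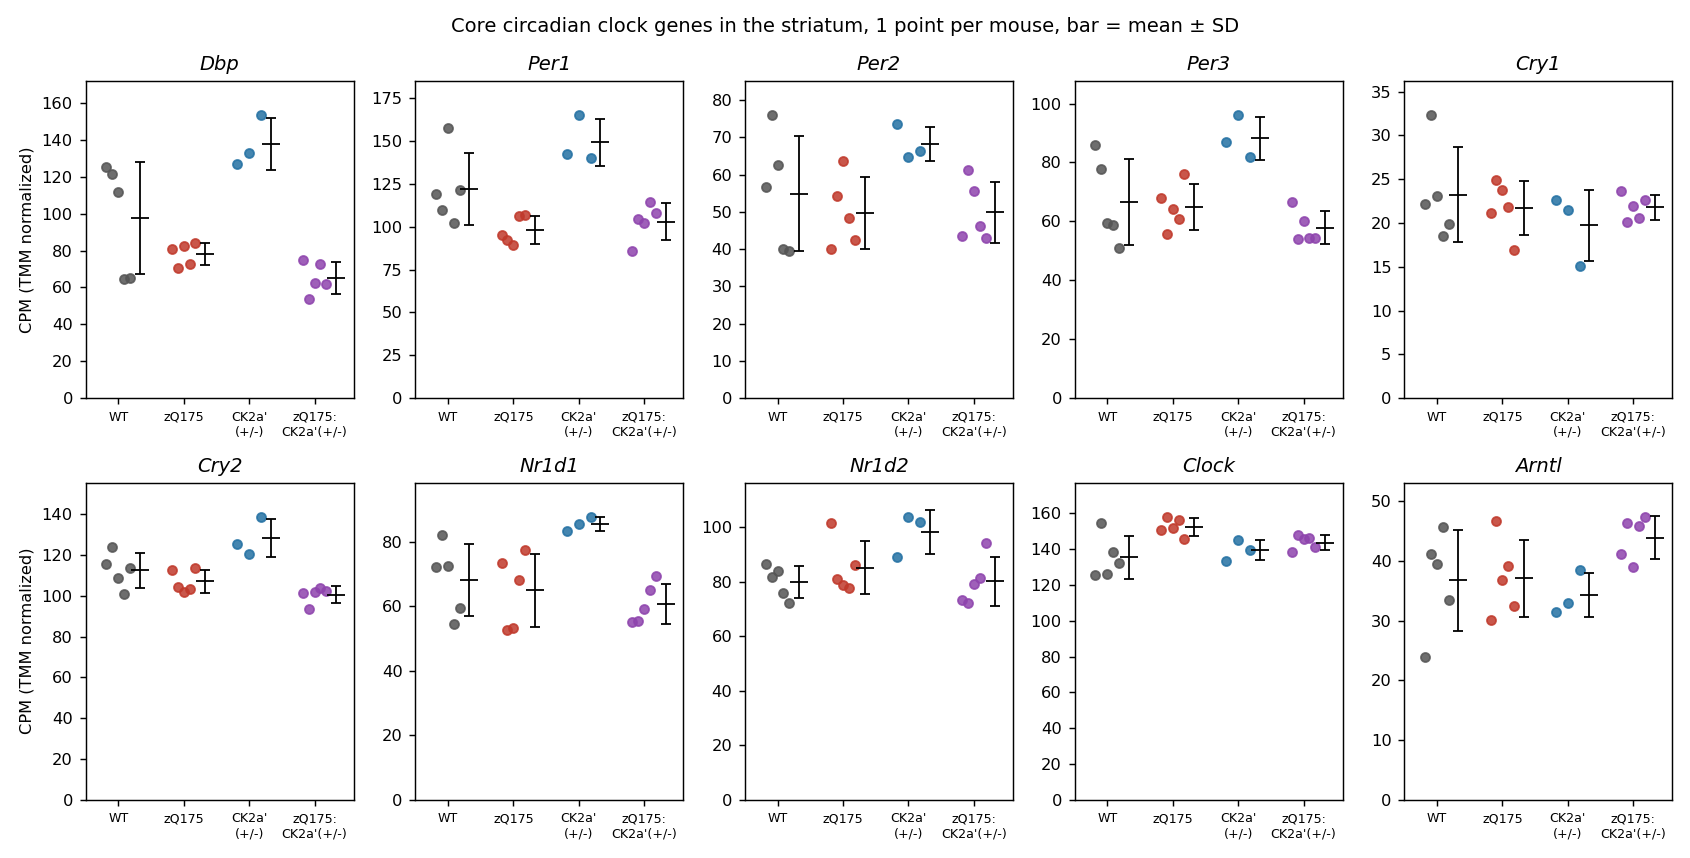
CPM of each clock gene (vertical axis, from 0) in each mouse by genotype (horizontal axis), with 1 point per mouse and the mean ± SD as a bar with a cross line. The 3 CK2a'(+/-) mice sit above all 5 zQ175:CK2a'(+/-) mice for Dbp, Per1, Per2, Per3, Cry2 and Nr1d1 and below them for Arntl, and the 5 WT mice split for Dbp into 3 at 112 to 125 CPM and a pair at 64.7 and 65.3 CPM.

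The first question was how mice that carried the zQ175 allele differed from those that did not where both lacked an allele of CK2a', from zQ175:CK2a'(+/-) against CK2a'(+/-). Here 4 of the 10 members fell, Dbp, Per1, Per3 and Cry2, at an adjusted p under 0.1 in edgeR's quasi-likelihood test. Over all genes tested, 0.368% were called lower. The median log2 fold change of the 10 members was -0.40, beside 0.00415 over all genes. Clock and Cry1 had the smallest differences, and Arntl was higher in each zQ175:CK2a'(+/-) mouse than in any CK2a'(+/-) mouse. DESeq2 called 5 members, Dbp, Per1, Per3, Cry2 and Nr1d1, beside 1.47% of the genes it gave an adjusted p. In edgeR the same 5 passed with no filter on low counts, beside 0.79%, and without WT replicate 2, beside 1.06%, and in a fit of only the 2 groups compared Per2 passed as well, which gave 6 beside 2.43%. With the level of Xist, which marks female cells, as a covariate, 1 member passed, Dbp, beside 0.359% of all genes in either direction. The log2 fold changes were then -0.52 for Per1, -0.48 for Per3 and -0.34 for Cry2, at adjusted p of 0.129, 0.153 and 0.134 (edgeR).

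Dbp was at 127, 133 and 154 CPM in the 3 CK2a'(+/-) mice and at 75.0, 53.9, 62.3, 72.7 and 62.1 CPM in the 5 zQ175:CK2a'(+/-) mice. The groups were thus far apart, with the highest zQ175:CK2a'(+/-) mouse below the lowest CK2a'(+/-) mouse. The log2 fold change was -1.08 (SE 0.176), or 2.11-fold lower, with an adjusted p of 0.0152 (edgeR).

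The Per genes encode the period proteins, which carry the repressive arm of the loop together with the cryptochromes. Per1 was at 143, 165 and 140.2 CPM in CK2a'(+/-) and at 85.9, 105, 102, 114 and 108 CPM in zQ175:CK2a'(+/-) mice, with a log2 fold change of -0.54 (SE 0.117, adjusted p 0.0717, edgeR). Per3 was at 87.0, 96.1 and 81.8 CPM against 66.6, 54.1, 60.0, 54.4 and 54.4 CPM, with a log2 fold change of -0.61 (SE 0.137, adjusted p 0.0733, edgeR). Both genes had no overlap between the groups. Per2, whose protein pairs with the cryptochromes in the repressor complex, was at 73.5, 64.8 and 66.4 CPM against 43.4, 61.2, 55.7, 46.1 and 42.8 CPM. The Per2 groups did not overlap either, but its log2 fold change of -0.45 (SE 0.184) did not pass, with an adjusted p of 0.429 (edgeR).

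Of the cryptochromes, Cry2 fell and Cry1 gave no detectable difference. Cry2 was at 125, 121 and 139 CPM in CK2a'(+/-) and at 101, 93.4, 102, 104 and 102 CPM in zQ175:CK2a'(+/-) mice, a tight second group that did not reach the first. Its log2 fold change was -0.35 (SE 0.0787, adjusted p 0.0733, edgeR). Cry1 was at 22.6, 21.5 and 15.1 CPM against 23.6, 20.1, 22.0, 20.5 and 22.6 CPM, overlapping groups with a log2 fold change of 0.14 (95% interval -0.21 to 0.49).

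The REV-ERB genes had lower means in zQ175:CK2a'(+/-) mice and did not pass in the test over all 4 groups. Nr1d1 was at 83.2, 85.5 and 87.8 CPM in CK2a'(+/-) and at 55.1, 55.3, 59.0, 64.97 and 69.2 CPM in zQ175:CK2a'(+/-) mice. These groups did not overlap, and the log2 fold change was -0.49 (SE 0.134, adjusted p 0.143, edgeR). Nr1d1 passed in DESeq2 (adjusted p 0.0648) and, in edgeR, with no filter on low counts (0.0435), in the fit of only these 2 groups (0.0127) and without WT replicate 2 (0.0831). Nr1d2 was at 88.9, 104 and 102 CPM against 73.2, 72.3, 79.1, 81.3 and 94.2 CPM. One zQ175:CK2a'(+/-) mouse, replicate 5, lay among the CK2a'(+/-) values, and the log2 fold change was -0.30 (SE 0.102, adjusted p 0.304, edgeR).

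The genes of the activators gave no call. Arntl was at 31.4, 32.9 and 38.5 CPM in CK2a'(+/-) and at 41.1, 46.3, 38.9, 45.8 and 47.4 CPM in zQ175:CK2a'(+/-) mice. Every zQ175:CK2a'(+/-) value was above every CK2a'(+/-) value by a narrow margin, and the log2 fold change of 0.36 (SE 0.165) did not pass (adjusted p 0.514, edgeR). Clock was at 134, 145 and 139 CPM against 138, 148, 145, 146 and 141 CPM, overlapping groups with a log2 fold change of 0.04 (95% interval -0.11 to 0.20).

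Counted over the members, 7 were lower at an unadjusted p under 0.05, beside 4.86% of all genes, and 6 were lower with no overlap between the groups, beside 4.48%. Arntl was the only member higher with no overlap, beside 3.86% of all genes. Leaving out 1 mouse at a time, the count of 4 became 0 without CK2a'(+/-) replicate 3, 2 without zQ175:CK2a'(+/-) replicate 1, and 1 without CK2a'(+/-) replicate 1 or 2 or zQ175:CK2a'(+/-) replicate 2, 3, 4 or 5, Dbp being the gene called in each case with 1. Calls over all genes fell as well, from 124 to 8 without CK2a'(+/-) replicate 3, 6 and 48 without replicates 2 and 1, and 28 to 44 without 1 of the zQ175:CK2a'(+/-) mice. Without CK2a'(+/-) replicate 3 the adjusted p of Dbp was 0.146 (edgeR), with a log2 fold change of -0.99. Without the 4 libraries rich in choroid plexus markers the count was 1, again Dbp, with log2 fold changes of -0.57 for Per1, -0.60 for Per3 and -0.34 for Cry2, and 14 genes passed in all.

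Other measures moved with this comparison. The 8 markers of striatal projection neurons, among them Drd1, Penk and Adora2a, summed to 3147 to 4724 CPM in CK2a'(+/-) and to 1717 to 2521 CPM in zQ175:CK2a'(+/-) mice. The 4 oligodendrocyte markers summed to 5179 to 6504 against 3607 to 4914 CPM, and the 5 astrocyte markers to 3487 to 3911 against 2929 to 3219 CPM. None of the 3 sums overlapped between the groups, and none of the markers was at 0 in any library. By gene, all 8 projection neuron markers were lower, 6 of them without overlap, beside 4.48% of all genes. Of the 4 oligodendrocyte markers, 3 were lower, 2 of them without overlap, and 1 was higher. Of the 5 astrocyte markers, 3 were lower, 1 of them without overlap, and 2 were higher. The part of the 3 lists in the result was not tested. Dbp shares 539 exon bases with Sphk2 on the opposite strand, and Nr1d1 shares 263 with Thra. In the same comparison Sphk2 had a log2 fold change of 0.34 (SE 0.182) and Thra of -0.04 (SE 0.113), and whether counting used the strand is not given in the sources used here.

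**Figure D2:**
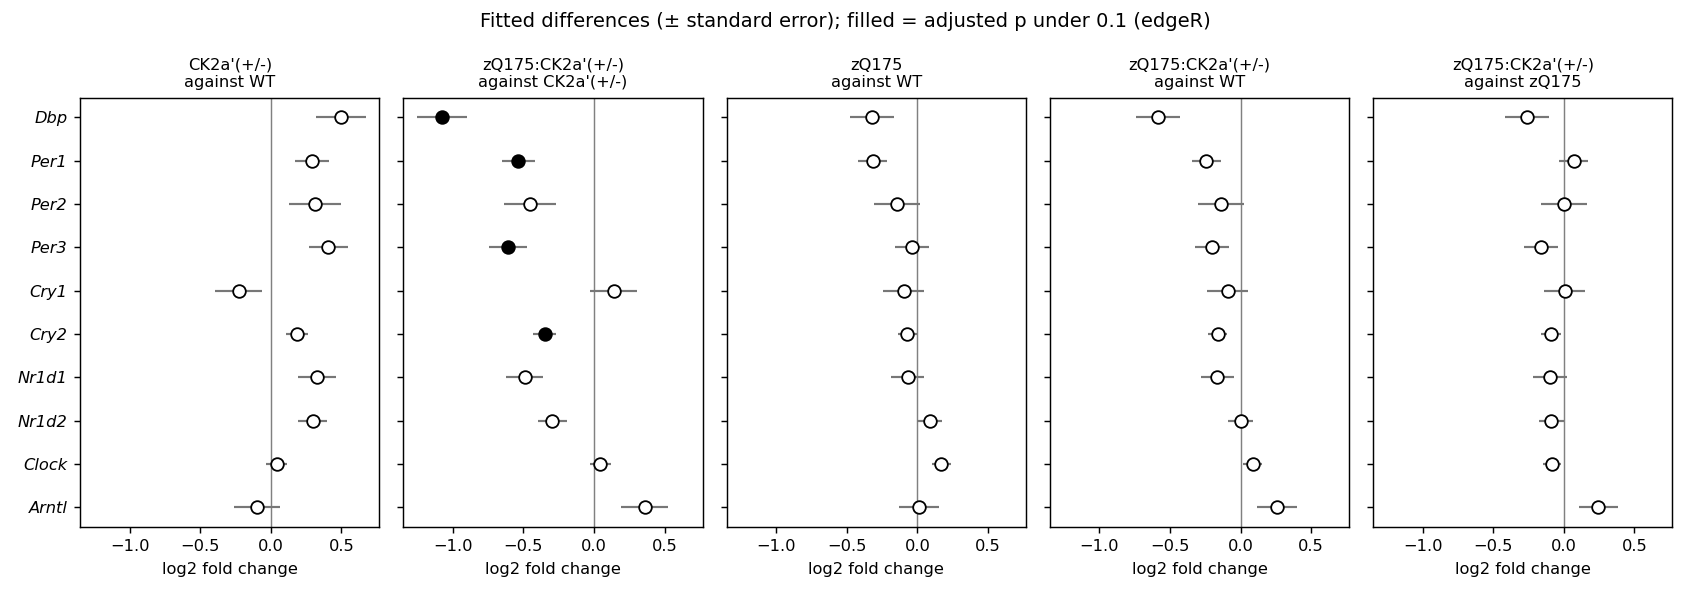
Fitted log2 fold changes (horizontal axis, ± standard error) of the 10 clock genes (vertical axis) in the 5 comparisons of genotypes, with filled points at an adjusted p under 0.1 in edgeR. Filled points stand only in the panel of zQ175:CK2a'(+/-) against CK2a'(+/-), for Dbp, Per1, Per3 and Cry2, all left of 0.

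The loss of a CK2a' allele alone was read from CK2a'(+/-) against WT. No member passed in edgeR or in DESeq2, where 0.0143% of all genes passed in edgeR, although 8 of the 10 had a higher mean in CK2a'(+/-) mice. At an unadjusted p under 0.05, 6 members were higher (Per1, Per3, Cry2, Nr1d1, Nr1d2 and Dbp), beside 1.99% of all genes. The median log2 fold change of the members was 0.29, beside -0.00571 over all genes. All 8 markers of striatal projection neurons also had a higher mean in CK2a'(+/-) mice, with a median log2 fold change of 0.30, none of them past the threshold, and their part in the members' values was not tested.

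Dbp was at 125, 122, 112, 64.7 and 65.3 CPM in the 5 WT mice, against 127 to 154 CPM in CK2a'(+/-). The WT mice fell apart into replicates 1 to 3, close to the CK2a'(+/-) values, and replicates 4 and 5, at the level of the zQ175:CK2a'(+/-) mice. The log2 fold change was 0.50 (SE 0.177), with an adjusted p of 0.999 (edgeR). The same pair of WT mice had the lowest Per2, at 40.0 and 39.5 CPM against 56.6 to 76.0 in the other WT mice, and the lowest Nr1d1, at 54.4 and 59.3 against 72.3 to 82.2 CPM. They also had the lowest sums of striatal projection neuron markers in WT, 2077 and 2071 CPM against 3082 to 4440, of astrocyte markers, 2760 and 2756 against 3116 to 4046 CPM, and of oligodendrocyte markers, 4881 and 5302 against 5428 to 6889 CPM. For microglia, cortical excitatory neuron, endothelial and choroid plexus markers, the WT mouse with the lowest sum was outside this pair. Replicate 4 had the highest WT sums of microglia and cortical excitatory neuron markers, at 130.4 and 55.4 CPM. Choroid plexus markers summed to 2042, 4.64 and 1703 CPM in WT replicates 1 to 3, against 10.8 and 13.9 CPM in the pair. The part of any of these marker lists was not tested.

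Nr1d1, Nr1d2 and Dbp were the members for which all CK2a'(+/-) mice were above all WT mice, beside 1.43% of all genes. Nr1d1 reached 82.2 CPM in the highest WT mouse and 83.2 in the lowest CK2a'(+/-) mouse, with a log2 fold change of 0.33 (SE 0.135). Nr1d2 reached 86.4 CPM in the highest WT mouse and 88.9 in the lowest CK2a'(+/-) mouse, with a log2 fold change of 0.30 (SE 0.102). These separations were narrow, and the adjusted p was 0.999 for both (edgeR).

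The zQ175 allele on its own, from zQ175 against WT, left no member past the threshold in edgeR, where 1.1% of all genes passed. Per1 was at 95.1, 92.2, 89.3, 107 and 107 CPM in zQ175 and at 119, 110.0, 157, 102 and 121 CPM in WT mice. The groups overlapped through the WT mouse at 102, and the log2 fold change was -0.32 (SE 0.103, adjusted p 0.166, edgeR). Clock was at 150.5, 158, 152, 156 and 146 CPM in zQ175 and at 125, 154, 126, 139 and 132 CPM in WT mice, with a log2 fold change of 0.17 (SE 0.0648, adjusted p 0.238, edgeR). Per1 and Clock were the 2 members at an unadjusted p under 0.05, beside 13.9% of all genes, and no member was free of overlap, beside 2.44%. DESeq2 called 1 member, Per1, beside 5.26% of the genes it gave an adjusted p, and leaving out WT replicate 2 gave 1, Clock, beside 2.82% of all genes. In the edgeR fit all 8 markers of striatal projection neurons were lower in zQ175 mice, 3 of them past the threshold. All 4 oligodendrocyte markers were lower, 3 past it, and all 5 markers of cortical excitatory neurons higher, 1 past it. No marker of the other lists passed, and the part of the markers was not tested.

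Mice with both alleles did not differ from WT by the main test in any member, where 0.0143% of all genes passed. Dbp had the lowest p of the members, with a log2 fold change of -0.58 (SE 0.157, adjusted p 0.261, edgeR), and the zQ175:CK2a'(+/-) values reached up to 75.0 CPM, above the WT pair at 64.7 and 65.3 CPM. At an unadjusted p under 0.05, 3 members were lower, Per1, Cry2 and Dbp, beside 4.85% of all genes, and no member was free of overlap, beside 1.84%. Dbp was the 1 member that passed in DESeq2, beside 0.725% of the genes given an adjusted p, in edgeR with no filter on low counts, beside 0.226%, and without WT replicate 4, beside 0.159%.

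Within the zQ175 background, zQ175:CK2a'(+/-) against zQ175, no member passed in edgeR or DESeq2 (0.0143% of all genes passed in edgeR), none reached an unadjusted p under 0.05 (6.27% of all genes), and none was free of overlap (1.14%). Dbp was at 80.6, 70.6, 82.3, 72.7 and 84.2 CPM in zQ175 mice, partly overlapping the 53.9 to 75.0 CPM of zQ175:CK2a'(+/-) mice, with a log2 fold change of -0.26 (95% interval -0.59 to 0.07). The largest difference the other way was that of Arntl, 0.25 (95% interval -0.05 to 0.54).

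Whether the effect of zQ175 depended on CK2a' was tested as the interaction of both alleles. No member passed in edgeR or DESeq2, where 0.00478% of all genes passed in edgeR. At an unadjusted p under 0.05, 5 members had a negative interaction (Per3, Cry2, Nr1d1, Nr1d2 and Dbp), beside 2.48% of all genes. For Dbp it was -0.76 (SE 0.237, adjusted p 0.832, edgeR), between a zQ175 effect of -0.32 in mice with both CK2a' alleles and -1.08 in CK2a'(+/-) mice. The lower members of the zQ175:CK2a'(+/-) against CK2a'(+/-) comparison are therefore not shown to respond differently in the 2 backgrounds. The comparisons share groups, since the same 3 CK2a'(+/-) mice enter the CK2a'(+/-) against WT comparison, the zQ175:CK2a'(+/-) against CK2a'(+/-) comparison and the interaction.

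The genes that stand next to the members in the clock were read as well, in lists chosen with earlier results of these data known. Of 12 partner transcription factors, 4 fell and none rose in zQ175:CK2a'(+/-) against CK2a'(+/-), with a median log2 fold change of -0.43. Over all genes tested, 0.368% were called lower and 0.225% higher. Ciart, a repressor of CLOCK and BMAL1 that is itself an E-box target, was at 16.5, 19.1 and 16.8 CPM in CK2a'(+/-) and at 8.16, 6.82, 7.90, 5.52 and 6.13 CPM in zQ175:CK2a'(+/-) mice. No zQ175:CK2a'(+/-) mouse came near the CK2a'(+/-) values, and the log2 fold change was -1.34 (SE 0.205, adjusted p 0.00736, edgeR). Ciart also lay higher in all 3 CK2a'(+/-) mice than in any WT mouse, where it was at 7.86 to 12.9 CPM, with a log2 fold change of 0.72 (SE 0.204, adjusted p 0.787, edgeR).

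Tef and Hlf encode the PAR bZIP factors closest to DBP. Tef was at 272, 275 and 302 CPM against 202, 182, 185, 211 and 171 CPM, a log2 fold change of -0.57 (SE 0.125, adjusted p 0.0717, edgeR). Hlf was at 167, 205 and 160 CPM against 111, 92.1, 120, 118 and 127 CPM, a log2 fold change of -0.64 (SE 0.152, adjusted p 0.0905, edgeR). All members of the PAR bZIP family were thus lower in zQ175:CK2a'(+/-) mice without overlap. Bhlhe40, which encodes the E-box repressor DEC1, had a log2 fold change of -0.56 (SE 0.138, adjusted p 0.0989, edgeR), from 61.6 to 65.3 CPM down to 37.1 to 50.1 CPM. In the other comparisons no partner factor passed. Leaving out 1 mouse of either group ended the calls of Tef, Hlf and Bhlhe40, whose adjusted p then lay between 0.103 and 0.396 (edgeR). Among the other groups, leaving out zQ175 replicate 4 ended the calls of Bhlhe40 (adjusted p 0.119) and Hlf (0.107), and WT replicate 3 or zQ175 replicate 3 that of Hlf (0.104 and 0.103), all in edgeR. With the Xist level as covariate the adjusted p was 0.120 for Tef, 0.205 for Hlf and 0.200 for Bhlhe40, and without the 4 libraries rich in choroid plexus markers it was 0.217, 0.318 and 0.322 (edgeR). The log2 fold changes of the 3 genes lay between -0.61 and -0.52 in both settings.

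Among 10 kinases and ubiquitin ligases of clock proteins, only Fbxl21 fell in zQ175:CK2a'(+/-) against CK2a'(+/-). FBXL21 targets the cryptochromes, and the gene was at 14.5, 11.3 and 12.3 CPM in CK2a'(+/-) and at 6.25, 7.03, 6.67, 6.85 and 8.89 CPM in zQ175:CK2a'(+/-) mice. The groups did not overlap, with a log2 fold change of -0.84 (SE 0.157, adjusted p 0.0335, edgeR), and the call ended without any 1 of the 3 CK2a'(+/-) mice, at adjusted p of 0.144, 0.1004 and 0.155, and without the 4 libraries rich in choroid plexus markers, at -0.72 (adjusted p 0.255, edgeR). The median of the list was 0.07. Csnk2a2, the targeted gene, was the only gene of the list called in CK2a'(+/-) against WT, at -0.92 (SE 0.111, adjusted p 0.000897, edgeR), in zQ175:CK2a'(+/-) against WT and in zQ175:CK2a'(+/-) against zQ175. In a fit of only the CK2a'(+/-) and WT mice, its log2 fold change was again -0.92, at an adjusted p of 0.101 (edgeR). Of 7 clock-controlled output genes, none passed in any comparison. The pair with the lowest p in zQ175:CK2a'(+/-) against CK2a'(+/-) were Usp2, which encodes a deubiquitinase, at -0.51 (SE 0.134, adjusted p 0.126, edgeR), and Cipc, which encodes a CLOCK-interacting repressor, at -0.20 (SE 0.0846, adjusted p 0.468, edgeR).

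Immediate early genes and glucocorticoid-induced genes were read because Per1 responds to both neuronal activity and corticosteroids. None of the 9 immediate early genes tested passed in any comparison, and Egr2 was below the filter. In zQ175:CK2a'(+/-) against CK2a'(+/-), Dusp1 and Junb had the lowest p, at -0.53 and -0.68 (adjusted p 0.395 and 0.5003, edgeR). None of the 10 glucocorticoid-induced genes passed in any comparison. Sgk1 had the lowest p of the list in zQ175 against WT, at -0.68 (adjusted p 0.104, edgeR). In zQ175:CK2a'(+/-) against CK2a'(+/-), Sgk1 and Ddit4 were at -0.72 and -0.57 (adjusted p 0.177 and 0.455, edgeR), and the medians of the lists of immediate early and glucocorticoid-induced genes were -0.22 and -0.09.

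**Figure D3:**
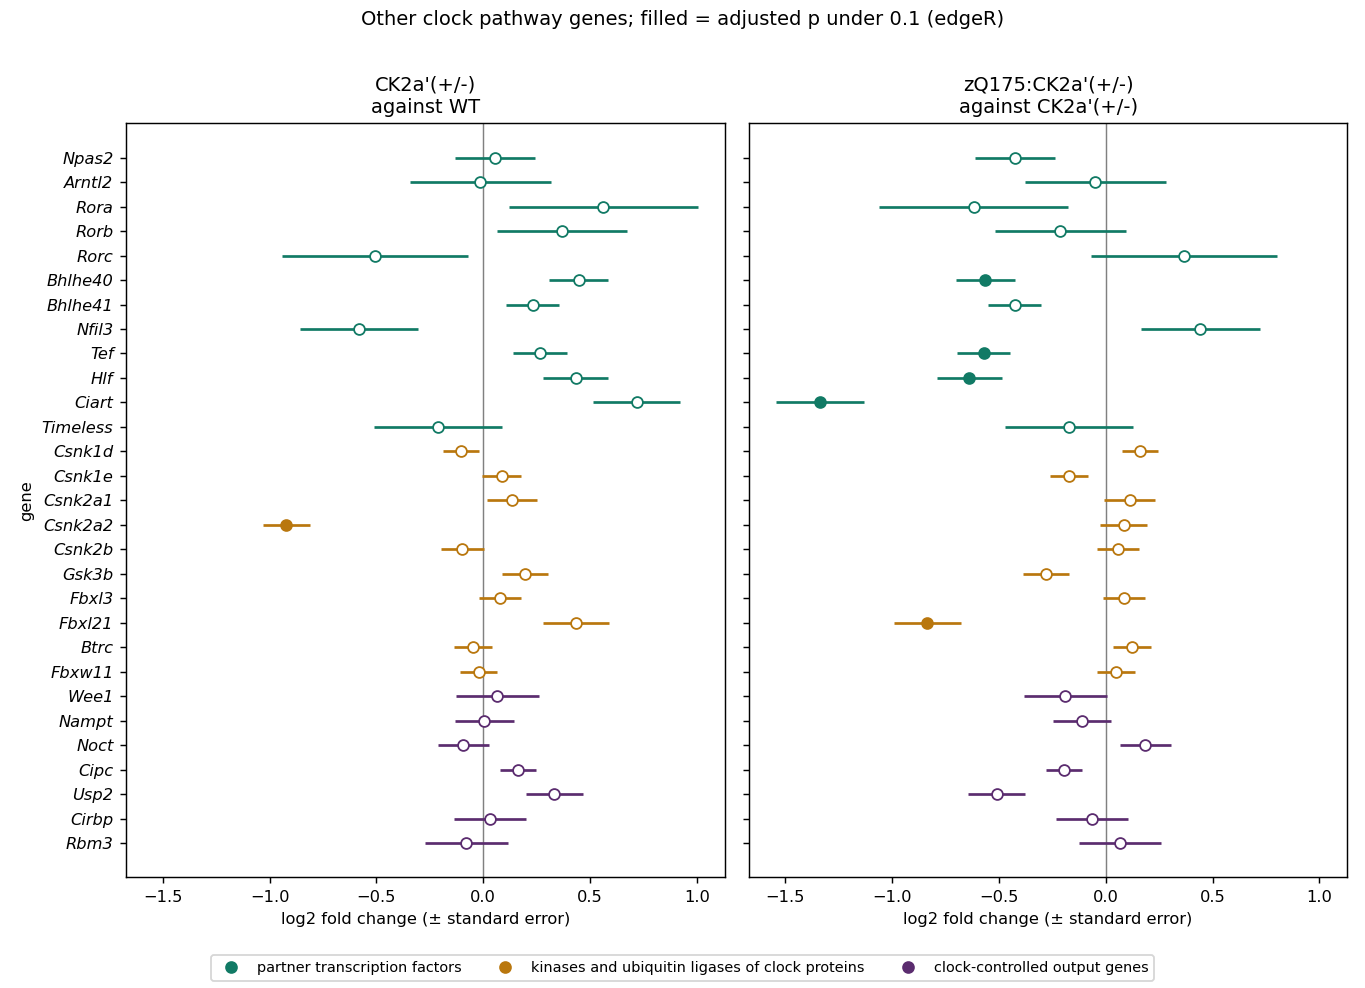
Log2 fold changes (horizontal axis, ± standard error) of 12 partner factors, 10 kinases and ubiquitin ligases and 7 output genes (vertical axis) in 2 comparisons, with filled points at an adjusted p under 0.1 in edgeR. On the right, Ciart, Hlf, Tef, Bhlhe40 and Fbxl21 are filled and lie left of 0, and on the left only Csnk2a2 is filled.

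Across the 18 mice, several but not all members shared a main axis of variation. The first principal component of the 10 members, a description that includes Dbp, held 52.4% of their variance and the second 15.6%. Dbp, Nr1d1, Cry2 and Per3 had the largest loadings on the first, 0.41, 0.40, 0.39 and 0.38, while Arntl, Clock and Cry1 had loadings of the opposite sign, -0.27, -0.16 and -0.05. On the second, Cry1, Per2 and Clock had the loadings largest in size, -0.64, -0.52 and -0.47. The 3 CK2a'(+/-) mice had the highest scores, 3.41 to 4.03, and the 5 zQ175:CK2a'(+/-) mice lay between -2.82 and -1.31. The WT mice spanned both ends, with replicates 1, 2 and 3 at 2.60, 1.57 and 1.24 and replicates 4 and 5 at -2.33 and -1.24.

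Pairs of members were correlated over the mice, with Benjamini-Hochberg adjustment over all 45 pairs. Dbp left a gap, with 12 mice at or below 84.2 CPM and 6 at or above 112 CPM, so no pooled correlation of its level with another member is given. Of the 36 pairs without Dbp, 9 passed an adjusted p of 0.05 in permutation tests on log2 CPM, 8 positive and 1 negative. Cry2 and Nr1d1 went together most closely, with a Pearson r of 0.84 (permutation p 2e-05, adjusted 0.00045), a Spearman rho of 0.84 (permutation p 4e-05) and an r of 0.79 without the 2 mice farthest from the median. Nr1d1 and Nr1d2, the paired REV-ERB genes, had an r of 0.76 (permutation p 0.00024, adjusted 0.00216) and a rho of 0.79 (permutation p 0.00019), with an r of 0.80 without the 2 farthest mice. The negative pair was Per3 and Arntl, with an r of -0.65 (permutation p 0.00393, adjusted 0.0177) and a rho of -0.68 (permutation p 0.00286), and -0.61 without the 2 farthest mice.

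These values hold the differences between genotypes. After removal of the genotype means, 6 of the 45 pairs had an unadjusted permutation p under 0.05 and none passed the adjustment, the lowest adjusted p being 0.0904. Cry2 with Nr1d1 kept an r of 0.70 (permutation p 0.00325) and Nr1d1 with Nr1d2 an r of 0.66 (permutation p 0.00402), while Per3 with Arntl had -0.60 (permutation p 0.0541). Of the 9 pairs, 8 had the same sign in the deviations, and Per1 with Cry2, at 0.61 over all mice, was at -0.01. Within the 12 mice with lower Dbp, the r of Dbp with the other members ran from -0.59 (Arntl) to 0.74 (Per3), with 0.60 for Cry2 but -0.37 for Per1 and -0.20 for Per2. Within the 6 with higher Dbp it ran from -0.75 (Cry1) to 0.89 (Cry2), with 0.58 for Per3 and -0.01 for Arntl, given as a description only.

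**Figure D4:**
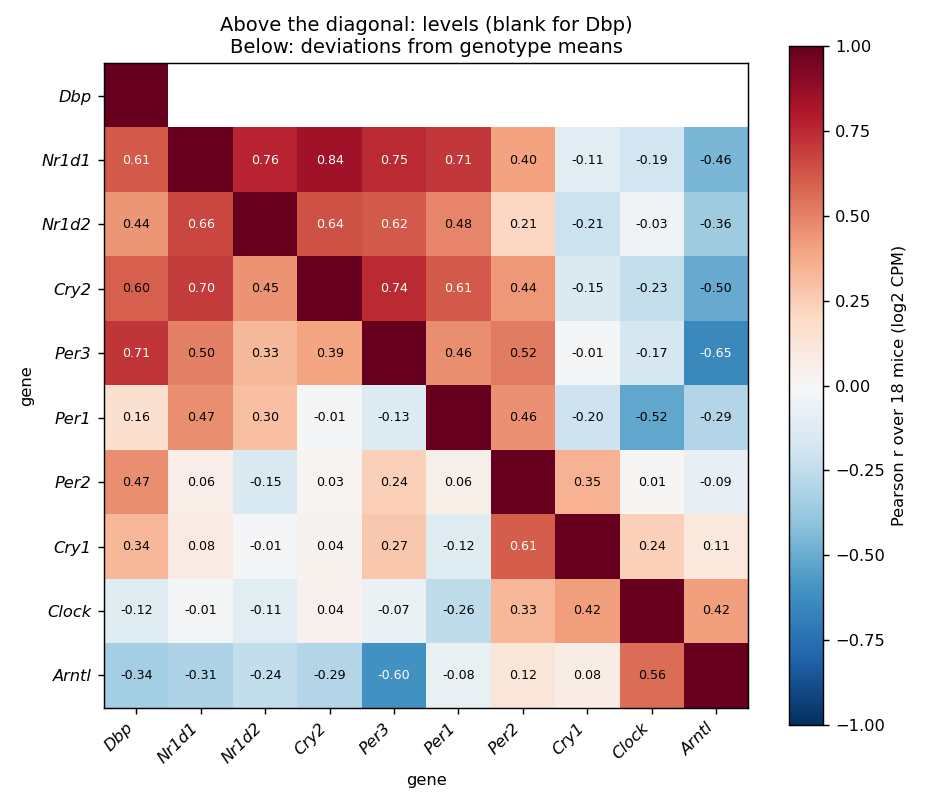
Pearson r between pairs of clock genes over 18 mice, on log2 CPM above the diagonal, where Dbp is left blank, and on deviations from genotype means below it, with colour from -1 (blue) to 1 (red). Cry2, Nr1d1, Nr1d2 and Per3 form a red block in both triangles, and Per3 with Arntl is blue in both, at -0.65 and -0.60.

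Genes outside these lists were ranked by the r of their deviations from genotype means with 3 members, over 14369 genes and 18 mice. Most like Dbp were Rcn1 (r 0.88), Rhobtb2 (0.86), Scn4b (0.84), Col6a4 (0.84) and Trank1 (0.84). Most like Arntl were Dio2 (r 0.85), Blnk (0.84), 2310022A10Rik (0.83), Chuk (0.82) and Chka (0.78). Most like Per1 were Urm1 (r 0.81), Tom1 (0.80), Lgi4 (0.79), Atxn2l (0.77) and Fhod1 (0.77). These are the top of a ranking of many genes in few mice and are given as a description.

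The promoters of the members were searched for the elements named above. RefSeq promoters (GRCm38.p6, 250 bases before to 50 after the start) matched 9 of the 10 members, and Per2 had no entry. The letters searched on both strands were CACGTG (E-box, in 7.15% of 32851 promoters of the same length), CACGTT (E-box variant, 4.68%), TTATGTAA (D-box, 0.938%), AGGTCA (bound by ROR and REV-ERB receptors, 16.3%) and TGACGTCA (the cAMP response element, 1.79%). No matches share bases in the windows shown. Per1, Per3 and Cry2 are shown because they fell, Ciart because its change was the largest of the lists, and Cry1 because it holds an E-box and did not change detectably. Capitals mark the matches, and each runs 5′ to 3′ on the strand of the gene.
Per1: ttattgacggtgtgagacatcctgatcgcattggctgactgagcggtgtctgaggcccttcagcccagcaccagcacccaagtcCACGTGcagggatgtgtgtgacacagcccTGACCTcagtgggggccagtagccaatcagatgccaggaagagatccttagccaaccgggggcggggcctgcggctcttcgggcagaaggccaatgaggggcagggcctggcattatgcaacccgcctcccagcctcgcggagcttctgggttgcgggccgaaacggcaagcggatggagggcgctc
Per3: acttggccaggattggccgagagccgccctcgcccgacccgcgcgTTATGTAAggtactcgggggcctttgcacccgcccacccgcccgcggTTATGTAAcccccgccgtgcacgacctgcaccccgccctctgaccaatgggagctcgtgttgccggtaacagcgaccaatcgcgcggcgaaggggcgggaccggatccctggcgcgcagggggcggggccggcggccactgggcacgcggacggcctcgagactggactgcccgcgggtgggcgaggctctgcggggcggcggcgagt
Cry2: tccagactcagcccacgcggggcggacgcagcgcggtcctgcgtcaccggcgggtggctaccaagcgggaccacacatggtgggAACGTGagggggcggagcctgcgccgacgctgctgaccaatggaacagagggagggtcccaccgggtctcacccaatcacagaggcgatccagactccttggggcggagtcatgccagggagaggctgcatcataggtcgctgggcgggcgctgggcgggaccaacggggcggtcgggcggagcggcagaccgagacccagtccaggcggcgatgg
Ciart: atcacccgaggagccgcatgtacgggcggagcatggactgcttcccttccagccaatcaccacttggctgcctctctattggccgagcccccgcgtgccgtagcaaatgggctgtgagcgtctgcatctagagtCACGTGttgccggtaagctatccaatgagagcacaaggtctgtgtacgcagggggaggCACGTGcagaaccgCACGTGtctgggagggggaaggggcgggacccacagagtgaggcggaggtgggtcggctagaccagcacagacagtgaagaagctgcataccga
Cry1: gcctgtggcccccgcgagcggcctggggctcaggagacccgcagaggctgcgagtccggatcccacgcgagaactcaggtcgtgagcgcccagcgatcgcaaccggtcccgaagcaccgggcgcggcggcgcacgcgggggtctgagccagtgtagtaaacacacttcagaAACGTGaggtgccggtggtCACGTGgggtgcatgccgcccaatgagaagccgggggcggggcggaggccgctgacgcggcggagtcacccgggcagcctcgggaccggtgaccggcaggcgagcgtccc
The first of 2 listed Per1 windows (chr11:69098699-69098998, plus strand) held an E-box 166 bases and an AGGTCA match 137 bases before the start, and the second, which is not shown, held none of the elements. The Per3 window (chr4:151044616-151044915, minus strand) held D-boxes 205 and 158 bases before the start, and the Cry2 window (chr2:92434020-92434319, minus strand) an E-box variant at 166. The Ciart window (chr3:95882179-95882478, minus strand) held 3 E-boxes, 116, 58 and 44 bases before the start. The Cry1 window (chr10:85185005-85185304, minus strand), of a gene with no difference detected between CK2a'(+/-) and zQ175:CK2a'(+/-) mice, held an E-box at 60 and a variant at 79 bases. Of the other members, Nr1d1 had a variant 28 bases before the start, Nr1d2 an AGGTCA match at 77, the third of 3 listed Clock promoters an AGGTCA match at 119, and Arntl an AGGTCA match 31 bases after the start of its second listed promoter. The Dbp window held none of these letters, which says only that they are not in this window. A match is a description of the letters and not a bound site.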

How the data were processed

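RNA from flash-frozen striatum of 18 mice was sequenced, 1 library per mouse, in 4 genotypes named in the labels. The authors trimmed reads with Trimmomatic, aligned them with HISAT2 (2.1.0) to GRCm38 and counted reads per gene with Subread (1.6.2), and they deposited raw counts per gene with a gene length in bases. Reads that were unmapped, had duplicated mapping or had low mapping quality were removed before counting. The stranded kit's setting in the count step is not given in the sources used here. Totals were 13612381 to 22702547 counts. Gene IDs were matched to symbols for 55154 of 55421 genes.

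Counts were filtered with filterByExpr, normalized by TMM (factors 0.935 to 1.05) and tested with edgeR (4.0.16) quasi-likelihood in R 4.3.3, in one fit of all 18 libraries by genotype, with Benjamini-Hochberg adjustment over 20914 genes and a threshold of 0.1. This keeps the threshold and groups of the study, while DESeq2 (1.42.0) was an alternative. SE was taken from the log2 fold change and the F statistic. Log2 CPM used a prior count of 2. Correlations used 100000 permutations, within genotype for the deviations, so that 1e-05 is the smallest p they can give. Each library is a separate mouse, and p-values measure the spread between mice.

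The members and gene lists were chosen with earlier results of these data known. The text names all 10 members, and of each list every gene past the threshold in a comparison or otherwise the 2 with the lowest p, plus the 5 genes most like Dbp, Arntl and Per1. The fits were tested on simulated data. Alternatives were DESeq2, other normalization and filters, only the groups compared, a replicate block, the level of Xist as covariate, a robust fit, a threshold of 0.05 and leaving out each mouse. Leaving out the 4 libraries rich in choroid plexus markers was chosen after seeing the data. The labels do not say that replicate numbers pair the mice.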

Additional observations from a re-analysis of the deposited data

Results flagged for a closer look

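In the 30 sets of 5 mice formed by the members and the 3 genotypes with 5 mice, 1 value stood apart from its group by Dixon's test: Cry2 in zQ175:CK2a'(+/-) replicate 2, at 93.4 CPM, where the other 4 mice lay between 101 and 104 CPM. The gap was 0.741 of the range, against a critical value of 0.71. Chance gives about 1 such value in 20 sets. This library also held the highest choroid plexus marker level, 3039 CPM, and the part of these markers was not tested.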

How the results depend on the processing

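In zQ175:CK2a'(+/-) against CK2a'(+/-), the count of 4 members was 0 with a replicate block, 1 with the Xist level as covariate, 1 at a threshold of 0.05, 1 without the 4 choroid plexus rich libraries, and 0 to 5 without 1 mouse. It was 5 in DESeq2, with no filter on low counts and without WT replicate 2, where Nr1d1 passed too, and 6 in a fit of only the 2 groups compared, with Nr1d1 and Per2. Dbp was the member called in each of the settings that gave 1. Over all genes, the 124 calls of this comparison became 12 with the block and 75 with the Xist level. They became 27 at the threshold of 0.05 and 14 without the 4 choroid plexus rich libraries. With the block the log2 fold changes were -0.98 for Dbp, -0.57 for Per1, -0.55 for Per3 and -0.35 for Cry2. Over 28 alternatives Dbp passed in 26, at log2 fold changes of -1.13 to -0.98, and Ciart in 28 of 28, at -1.41 to -1.21. Per1 passed in 16, Per3 in 17 and Cry2 in 16, always lower. Fbxl21 passed in 23, Tef in 16, Bhlhe40 in 15 and Hlf in 12. The replicate block ended all 4 calls (adjusted p 0.144, 0.285, 0.280 and 0.364, edgeR), and the robust fit that of Hlf (0.113). In zQ175 against WT the count of 0 was 1 in DESeq2 and 0 to 1 without 1 mouse. In zQ175:CK2a'(+/-) against WT it was 1 in DESeq2, 1 with no filter on low counts and 0 to 1 without 1 mouse. The other 3 counts stayed at 0 in all alternatives. The count of 0 correlated pairs after removal of genotype means was 4 with a replicate block and 0 to 3 without 1 mouse. Over all genes, same-numbered mice did not deviate together, with 24 pairs at r of -0.14 to 0.12 and 2 of them over 0.1. An r over all genes cannot show a factor shared by number that moves only a few genes. The labels name no pairing, and the block was not used in the tests given above. The cause of these changes was not tested.

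Of 1670 values of the members under alternatives, 1593 kept direction and side of the threshold, 37 were weaker, 10 stronger and 30 changed sign. Sign changes touched 9 results, all within 0.14 of 0 in the fit given above. With the Xist level, Arntl in CK2a'(+/-) against WT was 0.058 and Per2 in zQ175:CK2a'(+/-) against zQ175 was -0.024. Without the 4 choroid plexus rich libraries, Per3 and Arntl in zQ175 against WT were 0.057 and -0.114, and Per2 in zQ175:CK2a'(+/-) against zQ175 was -0.080. Without 1 mouse, values in zQ175 against WT were -0.119 to 0.058 for Per3, -0.168 to 0.040 for Cry1 and -0.124 to 0.105 for Arntl. In zQ175:CK2a'(+/-) against WT they were -0.162 to 0.045 for Cry1 and -0.064 to 0.035 for Nr1d2. In zQ175:CK2a'(+/-) against zQ175 they were -0.080 to 0.106 for Per2 and -0.068 to 0.058 for Cry1, and in zQ175:CK2a'(+/-) against CK2a'(+/-) -0.02 to 0.25 for Cry1.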
